A study of Mus musculus with 12 samples.

Results

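The cortex of R6/2 mice after the onset of symptoms was compared with the cortex of WT mice. The 4 libraries compared were the 2 libraries labelled as post-symptomatic HD cortex and the 2 labelled as WT cortex, out of 12 libraries in the series. R6/2 mice express exon 1 of the human huntingtin gene with an expanded CAG repeat, under the human promoter, and the WT mice were their littermates, which lack it. The post-symptomatic HD mice were 13 weeks old, and the WT libraries came from 1 age each, 13 weeks and 8 weeks, and were pooled because each age had a single library. A further 2 libraries of pre-symptomatic HD cortex, from R6/2 mice of 8 weeks, are given beside the comparison, since they share the WT libraries with it. No group received a drug or other agent. The remaining 6 libraries came from the striatum of the same groups, and the sources used here do not say whether a cortex and a striatum library came from 1 mouse or whether animals were pooled.

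Cortical neurons fall into excitatory projection neurons, which use glutamate, and inhibitory interneurons, which use GABA and are told apart by the peptides and calcium-binding proteins they make, such as somatostatin, neuropeptide Y and parvalbumin. Huntington's disease is known first for the loss of striatal projection neurons, and the cortex that projects onto them is affected as well. In the R6/2 model, mutant huntingtin exon 1 forms aggregates, and lower levels of neuronal signalling transcripts are a known feature of its brain.

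The somatostatin gene Sst lies on chr16:23889573-23890958 on the minus strand (GRCm38, GENCODE M21 annotation). The cocaine and amphetamine regulated transcript gene Cartpt, which also encodes a neuropeptide, lies on chr13:99898489-99901091 on the minus strand. Both are shown with the somatostatin receptor gene Sstr2 because all 3 were lower in post-symptomatic HD cortex and hold the same 8-base palindrome TGACGTCA, the full cAMP response element, near their start. The sequences run 5′ to 3′ from 250 bases before to 50 bases after the start of the RefSeq gene (GRCm38.p6), and capitals mark the motif. Sst is read from chr16:23890795-23891094 (minus strand), Cartpt from chr13:99900634-99900933 (minus strand) and Sstr2 from chr11:113619077-113619376 (plus strand).
Sst: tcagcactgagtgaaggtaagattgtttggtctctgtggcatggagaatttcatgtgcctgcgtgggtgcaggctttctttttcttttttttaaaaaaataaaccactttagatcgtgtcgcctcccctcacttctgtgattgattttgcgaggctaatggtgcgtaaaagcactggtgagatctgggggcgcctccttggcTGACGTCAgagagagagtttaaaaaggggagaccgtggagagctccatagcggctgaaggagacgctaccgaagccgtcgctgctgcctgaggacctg
Cartpt: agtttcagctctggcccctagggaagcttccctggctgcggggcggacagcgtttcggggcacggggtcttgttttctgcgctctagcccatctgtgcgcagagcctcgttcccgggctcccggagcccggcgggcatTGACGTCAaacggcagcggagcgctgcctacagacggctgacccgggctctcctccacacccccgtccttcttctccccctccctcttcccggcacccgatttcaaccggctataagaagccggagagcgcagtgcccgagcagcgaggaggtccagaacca
Sstr2: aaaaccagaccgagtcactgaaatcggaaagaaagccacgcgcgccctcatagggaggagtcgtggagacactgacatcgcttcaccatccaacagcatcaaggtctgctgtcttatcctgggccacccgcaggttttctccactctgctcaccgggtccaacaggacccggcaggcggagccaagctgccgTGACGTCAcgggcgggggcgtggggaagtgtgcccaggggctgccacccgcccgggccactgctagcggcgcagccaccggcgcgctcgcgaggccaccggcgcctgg
The first base of the motif stood at position -48 from the start site in Sst, -112 in Cartpt and -58 in Sstr2. TGACGTCA, searched on both strands (the motif reads the same on each), was present in 3.54% of the tested genes with a RefSeq promoter of this length, in 3.89% of those called lower and in 3.93% of those called higher. It was therefore about as frequent among lower as among higher genes and among all genes. The match describes the letters in this window and does not show binding.

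Among the increases, the transcription factor genes Pou4f1, known from sensory neurons and the habenula, and Barx1, known from the developing stomach and jaw, are shown because their start regions are dense in CG. Capitals mark each CG. Pou4f1 lies on chr14:104461676-104467999 (minus strand), and its sequence is read from chr14:104467950-104468249. Barx1 lies on chr13:48662998-48666507 (plus strand), and its sequence is read from chr13:48662786-48663085.
Pou4f1: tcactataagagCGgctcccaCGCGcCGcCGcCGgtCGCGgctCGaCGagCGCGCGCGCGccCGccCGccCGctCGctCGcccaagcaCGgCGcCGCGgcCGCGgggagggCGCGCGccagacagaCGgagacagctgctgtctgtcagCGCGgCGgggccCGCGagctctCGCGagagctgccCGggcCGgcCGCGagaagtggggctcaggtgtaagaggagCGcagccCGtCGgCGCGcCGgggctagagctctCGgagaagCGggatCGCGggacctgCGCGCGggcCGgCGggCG
Barx1: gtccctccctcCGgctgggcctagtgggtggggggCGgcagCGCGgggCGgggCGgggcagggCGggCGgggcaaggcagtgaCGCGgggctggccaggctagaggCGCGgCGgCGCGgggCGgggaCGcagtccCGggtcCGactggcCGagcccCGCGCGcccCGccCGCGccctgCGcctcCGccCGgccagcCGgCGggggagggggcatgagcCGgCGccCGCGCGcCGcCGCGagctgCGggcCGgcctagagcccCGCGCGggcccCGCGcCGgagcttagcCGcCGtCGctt
The windows held 57 and 50 CG, against a median of 22 over the tested genes with a promoter in RefSeq. They were picked as the densest, and other large increases lay below that median, with 11 CG for Shox2, 16 for Otx2 and 19 for Zfp503. Genes called lower had a median of 22 CG and genes called higher a median of 25.

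RNA was read from the 3′ end of polyadenylated transcripts, and the deposited values are counts per gene. The 4 compared libraries held between 10518927 and 12091201 counts. Intervals from such counts cover counting error only, because reads were counted without molecular identifiers. CPM below are counts scaled to a common library size by TMM (trimmed mean of M-values, which corrects for differences in library composition), and each fold change is on the log2 scale as post-symptomatic HD less WT. P-values come from the quasi-likelihood test of edgeR over the 6 cortex libraries, adjusted by Benjamini and Hochberg over all genes tested. Transcripts of Xist and of Y-linked genes showed 1 male and 1 female mouse in each of the 3 cortex groups, so the replicates are different mice. In WT cortex the 13-week library was female and the 8-week library male. Age and sex of the WT mice therefore cannot be told apart where a WT library is left out. The ribosomal RNA precursor Rn45s took 11.8% of the counts in post-symptomatic HD cortex and 5.16% in WT cortex on average. An exact permutation test of that share, two-sided, gave p = 0.333, the smallest value that 2 libraries against 2 allow. The share was 13.3% and 13.8% in pre-symptomatic HD cortex. In striatum it was 13.7% to 15.2% in HD libraries of both stages, and 5.62% and 4.32% in WT libraries. Every HD library of the series thus lay above every WT library. Whether HD and WT libraries differed in RNA quality or preparation was not tested, and neither was its part in the calls below. Leaving Rn45s out of the cortex fit moved the number of genes called by edgeR from 3549 to 3535.

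Libraries were checked against markers of cortex and of other cell types before genes were compared. Post-symptomatic HD replicate 2 stood apart in choroid plexus transcripts. The summed level of the 9 choroid plexus markers was 2978 CPM in that library, 69.6 CPM in post-symptomatic HD replicate 1, and between 2.77 and 7.94 CPM in the WT and pre-symptomatic HD libraries. Most of it was transthyretin (Ttr), the main secreted protein of the choroid plexus, with 65.1 and 2894 CPM in post-symptomatic HD replicates 1 and 2 and 2.64 and 4.47 CPM in WT mice. Results that rest on this library are given with and without it. Excitatory neuron markers summed to 8009 and 7522 CPM in post-symptomatic HD mice and to 17527 and 21496 CPM in WT mice. Every marker of that list had a count in at least 1 cortex library. In tissue RNA, fewer cells of a type and less RNA per cell cannot be told apart.

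A total of 14003 genes were tested, and 25.3% of them (3549) passed an adjusted p-value of 0.05. Of these, 1556 were higher in post-symptomatic HD cortex (11.1% of the genes tested) and 1993 were lower (14.2%). Changes over 2-fold were called for 542 higher and 605 lower genes. The median log2 fold change over all genes was 0.01. Post-symptomatic HD and WT libraries did not overlap for 61.9% of all genes tested, and the largest changes named below were chosen to have no overlap. With the 13-week WT library as the only WT library, whose variation was then taken from the other groups, 1923 genes were called. With all 12 libraries in the fit, 1003 were called.

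**Figure D1:**
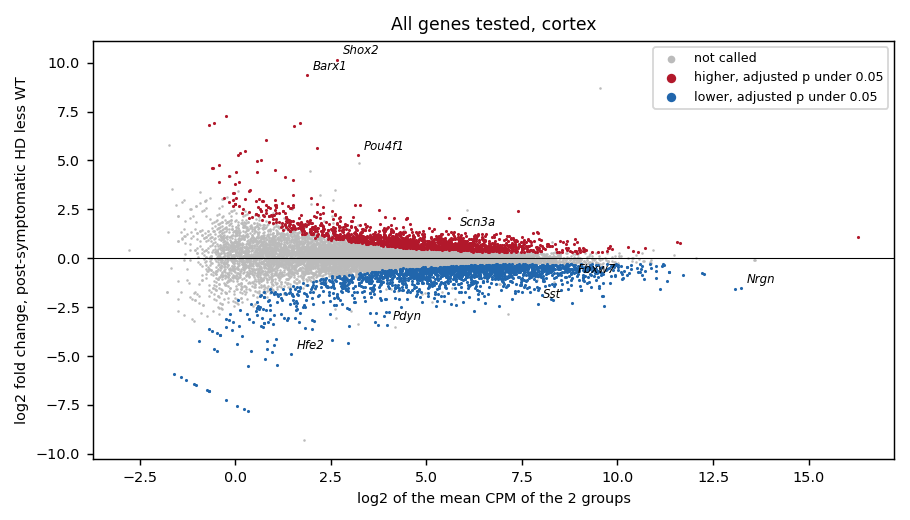
Log2 fold change (vertical axis, post-symptomatic HD less WT cortex) against log2 of the mean CPM of both groups (horizontal axis), with 1 point a gene. Red and blue points are the 1556 higher and 1993 lower genes, and Shox2 and Barx1, without a count in WT cortex, lie at the top.

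Neuropeptide and interneuron genes were lower as a group. Of 36 members tested, 24 were lower and 0 higher, against 14.2% lower over all genes. All 36 had a fold change below 0, with a median of -1.07 against 0.01 over all genes. Leaving out post-symptomatic HD replicate 2 also gave 24 lower, and 9 were lower in the fit of all 12 libraries.

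Somatostatin, the peptide of a large class of dendrite-targeting interneurons, showed one of the clearest decreases. Sst was at 85.6 and 74.6 CPM in post-symptomatic HD mice and at 382 and 423 CPM in WT mice. The HD libraries lay far below both WT libraries and close to each other. Its log2 fold change was -2.33 ± 0.12 (SE, n = 2 against 2, adjusted p = 5.29e-12 by edgeR). Npy, which encodes neuropeptide Y and is often made by the same interneurons, was at 119 and 102 CPM against 373 and 440 CPM, a log2 fold change of -1.88 ± 0.13 (SE). Crh, the corticotropin-releasing hormone gene, had a log2 fold change of -2.09, and Vip, which marks interneurons that inhibit other interneurons, of -1.62.

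Cck, a peptide gene of both interneurons and projection neurons, was at 386 and 366 CPM in post-symptomatic HD mice and at 1019.9 and 1136 CPM in WT mice. Pvalb, the calcium-binding protein of fast-spiking interneurons, was at 83.5 and 74.0 CPM against 202 and 208 CPM. Its log2 fold change was -1.38 ± 0.12 (SE, adjusted p = 9.88e-09 by edgeR). Gad1, which makes GABA from glutamate, fell by 1.30 on the log2 scale. Thus transcripts of several interneuron classes were lower. None of these genes overlapped between HD and WT libraries, which also held for 61.9% of all genes tested and 3548 of the 3549 called.

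The opioid peptide genes were lower as well. Pdyn (prodynorphin) was at 2.18 and 3.19 CPM in post-symptomatic HD mice and at 27.8 and 29.5 CPM in WT mice, a log2 fold change of -3.41. Penk (proenkephalin) was at 7.72 and 13.2 CPM against 56.6 and 41.2 CPM, a log2 fold change of -2.23. Cartpt was at 2.10 and 0.517 CPM against 11.4 and 17.4 CPM, a log2 fold change of -3.44 ± 0.43 (SE). The receptor gene Sstr2 was lower by less, at 3.86 and 5.60 CPM against 10.1 and 8.77 CPM, with an adjusted p of 0.0323 by edgeR that became 0.0538 after the trend with GC content was removed, 0.167 without post-symptomatic HD replicate 1, and 0.109 or 0.181 when a WT library was left out. Summed inhibitory neuron markers, 9 genes each with a count in at least 1 cortex library, were 389 and 396 CPM in post-symptomatic HD mice. They were 1074 and 1061 CPM in WT mice, and their part in these decreases was not tested.

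**Figure D2:**
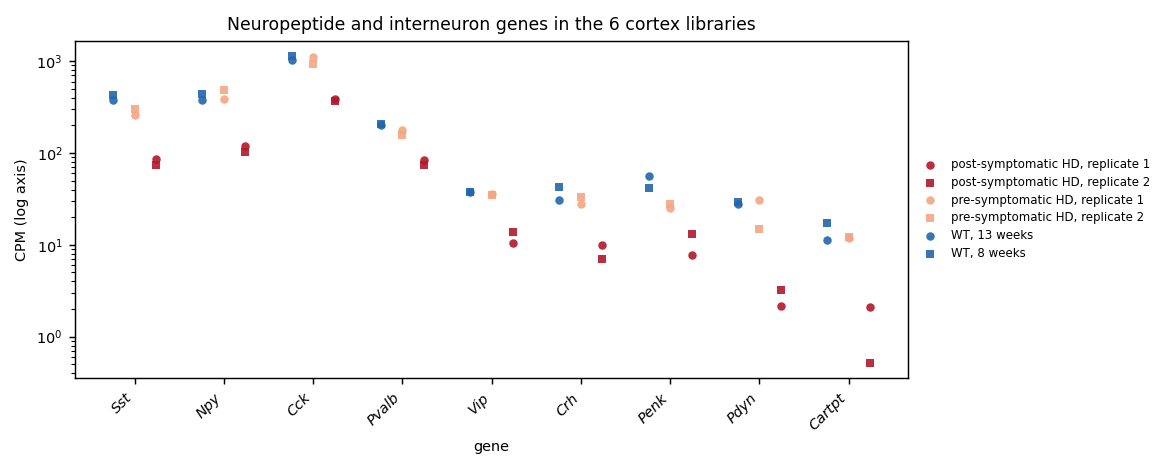
CPM (vertical log axis) of 9 peptide and interneuron genes (horizontal axis) in the 6 cortex libraries, with circles and squares for the 2 libraries of a group. Both post-symptomatic HD libraries, in red, lie below both WT libraries, in blue, for every gene shown.

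The synapse lists also held many lower genes. Of 45 tested members of the synaptic vesicle fusion machinery, 28 were lower and 2 higher, with a median log2 fold change of -0.60. Vamp1, a vesicle SNARE of fast-firing neurons, was at 60.6 and 54.1 CPM in post-symptomatic HD mice and at 245 and 248 CPM in WT mice, a log2 fold change of -2.10 ± 0.12 (SE, adjusted p = 1.73e-11 by edgeR). Cplx2 and Cplx3, complexins that clamp the SNARE complex, had log2 fold changes of -1.49 and -2.95. Rph3a (rabphilin), Syt7 (a calcium sensor of slow release) and Snap25 (a SNARE of the plasma membrane) had log2 fold changes of -1.51, -1.11 and -0.71. The higher members were Syp (synaptophysin, 0.32) and Pclo (piccolo, 0.50), and the adjusted p of Syp became 0.214 after the GC trend was removed and 0.148 without post-symptomatic HD replicate 1. That of Pclo became 0.0531 without the 13-week WT library, and 4 members were higher without post-symptomatic HD replicate 2.

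Of 46 glutamate receptor and scaffold genes tested, 22 were lower and 3 higher. Grm4, a presynaptic metabotropic receptor, was at 10.7 and 13.1 CPM in post-symptomatic HD mice and at 56.9 and 71.2 CPM in WT mice, a log2 fold change of -2.43. Slc17a7, the vesicular glutamate transporter of cortical excitatory neurons, was at 302 and 384 CPM against 741 and 802 CPM. The AMPA receptor subunit Gria3 fell by 1.06 on the log2 scale. Nptxr, the neuronal pentraxin receptor, had a log2 fold change of -1.65, but its annotation overlaps Npcd on the same strand, which had almost the same counts, so the reads of these genes cannot be told apart. All 3 higher members were the Shank scaffolds of the postsynaptic density.

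Shank1 was at 7.98 and 12.7 CPM in post-symptomatic HD mice and at 4.21 and 3.14 CPM in WT mice, Shank2 at 5.88 and 2.41 against 1.24 and 1.24 CPM, and Shank3 at 21.4 and 11.0 against 5.53 and 4.05 CPM. Their log2 fold changes were 1.49, 1.73 and 1.76. The adjusted p of Shank1 was 0.0582 without post-symptomatic HD replicate 2 and 0.0537 without the 8-week WT library. Shank2 fell to 0.95 without post-symptomatic HD replicate 1 (adjusted p = 0.240 by edgeR) and lost its call when either WT library was left out. In pre-symptomatic HD mice, Shank3 was at 35.6 and 32.2 CPM, above all 4 compared libraries, and its log2 fold change against WT mice was 2.82.

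Among 13 GABA receptor genes tested, 7 were lower and 2 higher. Gabrd, the delta subunit of extrasynaptic receptors, was at 14.5 and 14.2 CPM in post-symptomatic HD mice and at 51.1 and 67.6 CPM in WT mice, a log2 fold change of -2.04. Gabbr1 and Gabbr2, the partner subunits of the GABA-B receptor, moved in opposite directions, with log2 fold changes of -0.77 and 1.22. Gabbr2 was at 47.8 and 35.6 CPM against 15.9 and 19.9 CPM, and at 91.0 and 95.7 CPM in pre-symptomatic HD mice.

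Voltage-gated sodium channels carry the rising phase of the action potential. Of 9 sodium channel subunit genes tested, 4 were lower and 4 higher. The count of higher members was less stable, with 2 after the GC trend was removed or with the 4 compared libraries alone, and 1 when either WT library was left out. The lower members comprised 3 accessory beta subunits and the pore-forming subunit Scn8a (log2 fold change -0.63), and the 4 higher members were all pore-forming. Scn2b was at 156 and 136 CPM in post-symptomatic HD mice and at 317 and 328 CPM in WT mice. Scn4b, a beta subunit abundant in the striatum, was at 2.43 and 5.69 against 34.6 and 19.3 CPM.

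Scn3a, a pore-forming subunit best known from the embryonic brain, was at 78.5 and 74.3 CPM in post-symptomatic HD mice and at 32.3 and 27.6 CPM in WT mice, with both HD libraries above both WT libraries. Its log2 fold change was 1.35 ± 0.16 (SE, adjusted p = 6.71e-07 by edgeR). Scn9a had a log2 fold change of 1.72, whose adjusted p was 0.192 without post-symptomatic HD replicate 2 and 0.0762 without the 13-week WT library. The other two, Scn1a and Scn2a1, had smaller log2 fold changes of 0.31 and 0.29, and both lost their call after the GC trend was removed (adjusted p = 0.448 and 0.0519 by edgeR) and without post-symptomatic HD replicate 1 (0.220 and 0.230).

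Of 69 genes matched by the symbols of potassium channels, which include a few antisense transcripts, 33 were lower and 2 higher, with a median log2 fold change of -0.62. Kcnab3, an accessory subunit of Kv1 channels, was at 65.2 and 78.2 CPM in post-symptomatic HD mice and at 214 and 283 CPM in WT mice. Kcna1 and Kcna6, Kv1 pore-forming subunits, and Kcnh3 had log2 fold changes of -1.15, -1.13 and -1.29. The higher members were Kcnh7 and Kcnt2 (1.03 and 1.13), with adjusted p of 0.0900 and 0.109 after the GC trend was removed and of 0.129 and 0.391 without post-symptomatic HD replicate 1.

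Calcium handling genes were lower in 30 of 57 cases and higher in 1. Camkk2, the kinase that activates CaM kinases I and IV, had the smallest adjusted p-value of all genes. It was at 152 and 155 CPM in post-symptomatic HD mice and at 683 and 811 CPM in WT mice, a log2 fold change of -2.28 ± 0.12 (SE, adjusted p = 4.32e-12 by edgeR). Ppp3r1, the regulatory subunit of calcineurin, and Atp2b2, a plasma membrane calcium pump, had log2 fold changes of -1.08 and -1.12. Itpka, which phosphorylates inositol trisphosphate, was at 37.2 and 41.3 against 131 and 122 CPM. The higher member was Cacna1e (0.47), which fell to 0.15 without post-symptomatic HD replicate 1 (adjusted p = 0.552 by edgeR) and lost its call when either WT library was left out (0.107 and 0.136).

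Signalling genes best known from striatal neurons were lower in cortex as well. Of 18 tested members of the dopamine and cAMP list, 10 were lower and 1 higher, with a median log2 fold change of -1.13. Arpp19, a cAMP-regulated phosphoprotein, was at 106 and 132 CPM in post-symptomatic HD mice and at 467 and 573 CPM in WT mice, and Rasd2 (Rhes) had a log2 fold change of -1.94. The higher member was the phosphodiesterase gene Pde10a, at 18.6 and 16.6 against 12.6 and 7.69 CPM, with an adjusted p of 0.0378 that was lost without post-symptomatic HD replicate 1 (0.142), without replicate 2 (0.0655) and without the 8-week WT library (0.366). Summed striatum markers were 128 and 131 CPM in post-symptomatic HD cortex and 311 and 233 CPM in WT cortex. Of the 11 markers, 1 (Gpr6) had no count in any of the 6 cortex libraries. The part of striatal tissue in this list was not tested.

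RGS proteins shorten G protein signals, and 6 of 16 tested were lower and 2 higher. Rgs4, a regulator abundant in cortical neurons, was at 256 and 246 CPM in post-symptomatic HD mice and at 1098 and 1589 CPM in WT mice, a log2 fold change of -2.42 ± 0.15 (SE, adjusted p = 9.17e-08 by edgeR). Rgs20, Rgs14 and Rgs2 had log2 fold changes of -1.55, -1.35 and -0.71. Of 17 phosphodiesterase genes, 4 were lower (23.5%) and 1 higher (5.88%), against 14.2% and 11.1% over all genes. The lower ones included Pde8b (-0.80), Pde1b (-0.58) and Pde2a (-0.50). With all 12 libraries in the fit, 0 of the 17 were called.

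Genes of cortical layers were lower in part. Of 39 tested, 16 were lower and 0 higher, with a median log2 fold change of -0.40. Lamp5, a membrane protein of upper-layer and neurogliaform neurons, was at 34.8 and 39.0 CPM in post-symptomatic HD mice and at 177 and 229.7 CPM in WT mice, a log2 fold change of -2.46. The log2 fold change was -2.74 for Rspo1, a secreted Wnt amplifier, and -1.35 for Rasgrf2, a calcium-responsive exchange factor of upper layers. In the fit of all 12 libraries, 4 of the 39 were lower.

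Activity-induced genes were lower in 10 of 30 cases and higher in 0, with a median log2 fold change of -1.17. Ier5 was at 88.2 and 105 CPM in post-symptomatic HD mice and at 351 and 289.7 CPM in WT mice. The log2 fold changes of the transcription factor gene Egr3 and of Nptx2, a secreted pentraxin that clusters AMPA receptors, were -1.94 and -2.08. Arc, the synaptic plasticity gene, was at 34.8 and 34.7 CPM against 254 and 240.2 CPM without passing the test (adjusted p = 0.144 by edgeR).

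The pre-symptomatic HD libraries, which entered the same fit, held 40.8 and 206 CPM of Arc. With the 4 compared libraries alone, Arc, Egr2 and Npas4 had log2 fold changes of -2.81, -3.34 and -2.68 with adjusted p of 1.54e-09, 7.31e-06 and 0.00269 by edgeR, and 21 of 30 members were lower. With all 12 libraries in the fit, Arc and Egr2 also passed (adjusted p = 0.0361 and 0.0290 by edgeR).

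**Figure D3:**
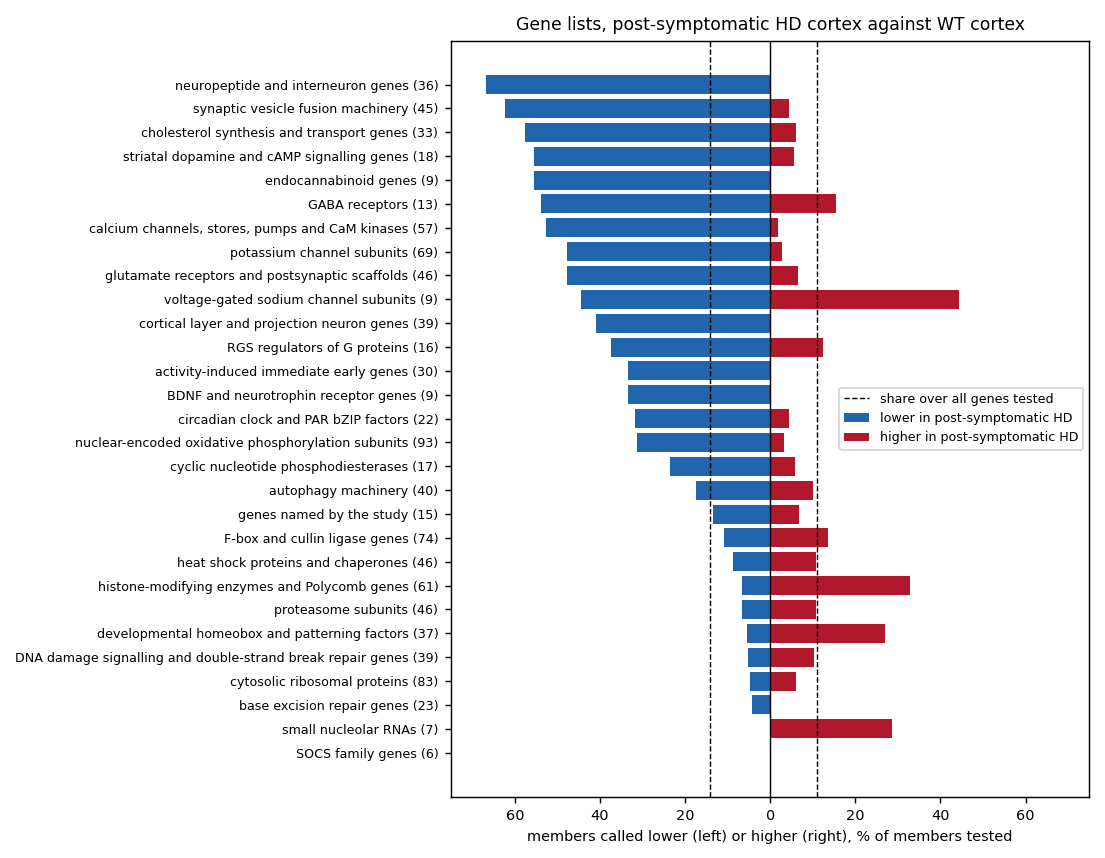
Share of the tested members of each list called lower (blue, to the left) or higher (red, to the right) in post-symptomatic HD cortex, in %, with the number tested after each name. Dashed lines mark the shares over all genes, 14.2% lower and 11.1% higher, and among these lists, which leave out the cell type markers, the neuropeptide and interneuron list lies farthest to the left.

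Metabolic genes fell in 2 lists. Of 33 cholesterol synthesis and transport genes, 19 were lower and 2 higher, with a median log2 fold change of -0.69. Msmo1, Cyp51 and Mvd, enzymes of the synthesis pathway, were all lower (Msmo1 -1.24 and Mvd -1.65 on the log2 scale), and Cyp51 was at 30.4 and 32.0 CPM in post-symptomatic HD mice and at 75.1 and 101 CPM in WT mice. Abca1, which exports cholesterol from cells, went the other way, at 29.6 and 33.4 against 10.5 and 10.7 CPM. Of 93 genes matched as nuclear-encoded oxidative phosphorylation genes, assembly factors included, 29 were lower and 3 higher, with a median log2 fold change of -0.23. Without the 8-week WT library 11 of them were lower, and with all 12 libraries in the fit 7. Examples are Uqcr11 of complex III (-0.94), Cox6a2 of complex IV (-1.61) and Sdhb of complex II (-0.70).

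Smaller lists for retrograde and trophic signalling held lower genes and 0 higher. Of 9 endocannabinoid genes, 5 were lower, among them Mgll, which degrades 2-arachidonoylglycerol, at 208 and 220.2 CPM in post-symptomatic HD mice against 527 and 553 CPM in WT mice. Daglb and Faah had log2 fold changes of -0.82 and -0.67. Of 9 neurotrophin genes, 3 were lower, with Sort1 (sortilin) at -1.17 and Ntrk3 at -0.47. Only 1 was lower without post-symptomatic HD replicate 1 or without the 8-week WT library, where Ntrk3 had adjusted p of 0.0720 and 0.0770 by edgeR. Bdnf was at 63.0 and 65.3 CPM against 98.5 and 83.0 CPM and did not pass the test (adjusted p = 0.123 by edgeR), though it did with the 4 compared libraries alone (adjusted p = 0.0146) and after the GC trend was removed (adjusted p = 0.0360).

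Of 22 clock genes, 7 were lower and 1 higher. Dbp, Tef and Hlf, which form the PAR bZIP family of output factors, had log2 fold changes of -1.17, -0.64 and -0.64, and the repressor gene Nr1d1 of -0.89. The higher gene was Arntl2, at 2.77 and 2.41 CPM in post-symptomatic HD mice against 0.248 and 0.414 CPM in WT mice, with an adjusted p of 0.0586 by edgeR without post-symptomatic HD replicate 1 and of 0.0784 or 0.113 when a WT library was left out.

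DNA repair was the subject of the study, and its gene lists changed little in cortex. Of 23 base excision repair genes, 1 was lower and 0 higher, below the background of 14.2% and 11.1%. The lower gene was Polb, the gap-filling polymerase of that pathway, at 24.4 and 25.6 CPM in post-symptomatic HD mice and at 54.5 and 63.2 CPM in WT mice. Its log2 fold change was -1.23 ± 0.17 (SE, adjusted p = 7.06e-06 by edgeR). Of 39 genes of damage signalling and double-strand break repair, 2 were lower and 4 higher. Gadd45g and Gadd45b, stress-induced genes, were lower (-0.91 and -1.40), and Nbn, part of the complex that senses breaks, was higher (1.16). Leaving out the 8-week WT library left 1 higher, and leaving out the 13-week one left 2.

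Trp53, which encodes p53, was at 11.3 and 13.7 CPM in post-symptomatic HD mice and at 4.87 and 2.98 CPM in WT mice. Its log2 fold change was 1.67 ± 0.38 (SE, adjusted p = 0.00254 by edgeR), with an adjusted p of 0.0544 against the 13-week WT library alone and 0.0612 with all 12 libraries in the fit. Fbxw7, the F-box substrate receptor of a ubiquitin ligase, was at 294 and 296 CPM against 589 and 619 CPM. Its log2 fold change was -1.03 ± 0.10 (SE, adjusted p = 1.07e-07 by edgeR), and in pre-symptomatic HD mice it was at 705 and 687 CPM.

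Of 15 tested genes on a list of genes that the study names, 2 were lower (Fbxw7 and Polb) and 1 higher (Trp53). These shares of 13.3% and 6.67% lay below the 14.2% and 11.1% over all genes. The list does not hold every gene that the study names (Nbn is another) and includes some chosen on these libraries. Usp28, a deubiquitinase, was at 3.53 and 4.65 CPM in HD mice, below both WT libraries, with a log2 fold change of -0.84 (adjusted p = 0.122 by edgeR). Socs2, a suppressor of cytokine signalling, was at 25.1 and 15.5 against 29.5 and 31.4 CPM (adjusted p = 0.0508 by edgeR), and it passed after the GC trend was removed (0.0185), without a filter on low counts (0.0168) and without post-symptomatic HD replicate 1 (0.00417). Chek2, the checkpoint kinase CHK2, was at 1.09 and 1.72 against 1.40 and 0.579 CPM, and its groups overlapped. A heatmap caption of the paper gives both CHK2 and USP28 as downregulated in striatum and cortex, without naming the groups compared. Cops6, which encodes CSN6 of the COP9 signalosome, had a log2 fold change of 0.12 ± 0.15 (SE). The log2 fold changes of Ddb1, H2afx, Xrcc6, Atm, Eya2, Cdkn2d and Fbxo18 lay between -0.29 and 0.50, and none passed the test. The endogenous Htt gene was at 31.8 and 44.7 against 42.7 and 37.1 CPM, which does not check the transgene, whose human exon 1 lies outside the 3′ end counted here.

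Protein quality control was near the background, and several of its small counts changed with 1 library. Of 74 F-box and cullin ligase genes, 10 were higher and 8 lower. Besides Fbxw7, Fbxo2 and Cops7b were lower (-0.72 and -0.98) and Cul3 was higher (0.81). Of 40 autophagy genes, 4 were higher, such as Tax1bp1 (0.66) and Rb1cc1 (0.67), and 7 were lower, such as Becn1 (-0.63) and Atg12 (-0.66). Among 46 heat shock and chaperone genes, Hspb1 (0.81) and St13 (0.70) were among 5 higher, and Hspa12a (-0.94) and Hsph1 (-0.54) among 4 lower. Of 46 proteasome genes, 5 were higher, with Psme1, an activator induced by interferon, at 0.88 and Psmd14 at 0.59, and 3 were lower. Of 83 cytosolic ribosomal protein genes, 5 were higher and 4 lower, with Rps2 at 0.58 and Rpsa at -0.68, and of 6 SOCS genes 0 were called by edgeR. Without the 8-week WT library, 6 F-box and cullin genes were higher and 4 lower, 4 autophagy genes were lower, 3 chaperone and 2 proteasome genes were higher, and 1 ribosomal protein gene was lower.

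Chromatin genes were the long list with the most increases. Of 61 genes for histone-modifying enzymes and Polycomb proteins, 20 were higher and 4 lower, with a median log2 fold change of 0.27. Suz12, a core subunit of Polycomb repressive complex 2, was at 58.3 and 49.8 CPM in post-symptomatic HD mice and at 19.2 and 18.9 CPM in WT mice, with an adjusted p of 1.09e-06 by edgeR. The acetyltransferase gene Kat6a and the methyltransferase gene Kmt2a had log2 fold changes of 1.23 and 0.90. Cbx6, a Polycomb reader, was at 714 and 699 against 1094 and 1443 CPM, but its annotation also overlaps Npcd on the same strand, so reads may be shared. Without post-symptomatic HD replicate 2, 15 were higher, without the 8-week WT library 11, and with all 12 libraries in the fit, 8.

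Among called genes of at least 5 CPM, the largest increases included developmental transcription factors that adult cortex barely transcribes. Shox2, a homeobox gene of heart, limb and thalamus, had 165 and 134 counts in post-symptomatic HD mice and 0 in both WT libraries. Against the floor of 3 counts over the WT group it was at least 103-fold higher. Barx1 had 111 and 63 counts against 0 in both WT libraries, at least 59.7-fold higher by the same floor. Hoxb5, a trunk patterning gene that adult forebrain normally leaves silent, had 115 and 36 counts against 0 and 1, a count ratio of 155 (95% exact interval 27.5 to 6181, counting error only). For Hoxc6, with 55 and 26 counts against 0 and 1, the ratio was 83.4 (14.6 to 3334).

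Twist1, a mesodermal factor, was at 8.48 and 8.79 CPM in post-symptomatic HD mice and at 0.330 and 0 CPM in WT mice. Pou4f1 was at 23.8 and 12.4 CPM against 0.495 and 0.414 CPM, a log2 fold change of 5.28 ± 0.56 (SE, adjusted p = 1.30e-06 by edgeR). Zfp503, a zinc finger repressor of the developing striatum, was at 18.4 and 15.0 against 2.89 and 2.23 CPM. In pre-symptomatic HD cortex, Barx1, Hoxb5 and Hoxc6 had 0 counts, and Shox2 had 4 counts in each library.

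Shox2, Barx1, Twist1 and Zfp503 were no members of the list of developmental homeobox and patterning genes. Of its 150 genes, 37 passed the filter on low counts, 10 of them higher and 2 lower. The filter lets in genes that are high in a single group, so this count is given as a description. Besides Pou4f1, Hoxb5 and Hoxc6, the higher members included Onecut2, which was at 81.4 and 73.7 CPM against 23.7 and 13.4 CPM. Pax2 had 33 and 22 counts against 0 and 1, Lhx9 26 and 42 against 1 and 1, and Hoxd8 20 and 20 against 0 and 0. Without post-symptomatic HD replicate 2, 7 were higher, and without the 8-week WT library 6.

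Otx2, a forebrain factor that adult choroid plexus keeps expressing, had 15 and 118 counts in post-symptomatic HD replicates 1 and 2, in the order of their choroid plexus markers, against 1 and 0 counts in WT mice. Its adjusted p rose from 0.00328 to 0.0837 without replicate 2. Lbp, the lipopolysaccharide-binding protein, was at 0.924 and 9.48 against 0.825 and 0.248 CPM, and its log2 fold change fell from 3.25 to 0.77 without that library. Both genes were highest in the library with choroid plexus transcripts, and the part of those transcripts was not tested beyond these values.

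**Figure D4:**
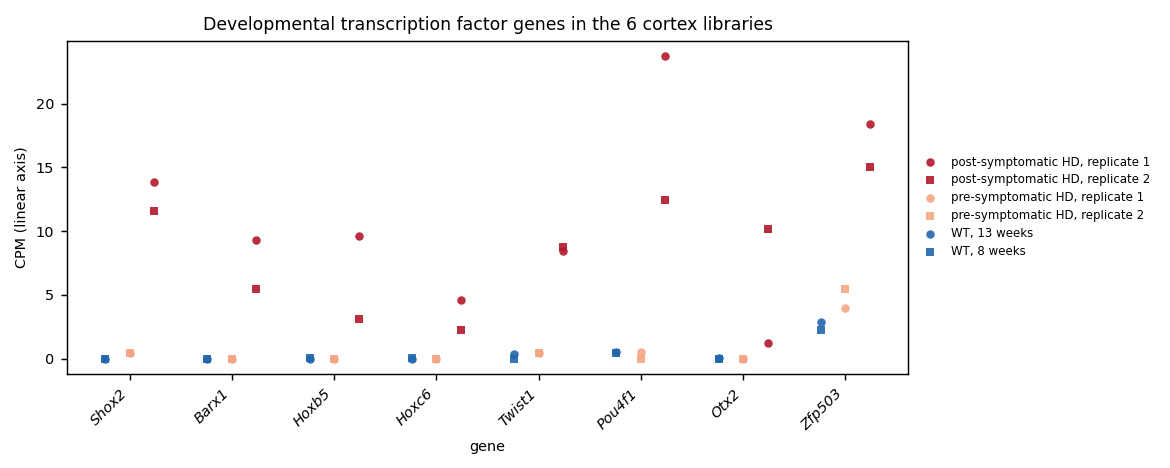
CPM (vertical linear axis) of 8 developmental transcription factor genes (horizontal axis) in the 6 cortex libraries, with circles and squares for the 2 libraries of a group. WT and pre-symptomatic HD points lie near 0 except for Zfp503, and Otx2 is high in post-symptomatic HD replicate 2 only.

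The remaining largest increases were of other kinds. Mta3, a subunit of a chromatin remodelling complex, was at 8.06 and 6.21 CPM in post-symptomatic HD mice and at 0.990 and 0.662 CPM in WT mice. Ifi44, an interferon-induced gene, was at 10.7 and 4.65 against 1.98 and 0.248 CPM, with an adjusted p of 0.0898 by edgeR without post-symptomatic HD replicate 1 and 0.0555 without the 8-week WT library. The unnamed transcript 2410004P03Rik was at 5.21 and 5.52 against 0.330 and 0.331 CPM. Snora81, a small nucleolar RNA inside the host gene Eif4a2, was at 17.0 and 13.5 against 2.97 and 1.57 CPM. Only 7 of 119 small nucleolar RNAs listed in the files passed the filter, of which 2 were called higher, Snora81 and Scarna10 (the latter with adjusted p of 0.0748 or 0.198 when a WT library was left out), and the library kit primes polyadenylated RNA, which most small nucleolar RNAs are not.

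The largest decreases among genes of at least 5 CPM included several with no neuronal role in textbooks. Hfe2 (hemojuvelin, an iron-sensing coreceptor) was at 0.252 and 0.0862 CPM in post-symptomatic HD mice and at 6.27 and 4.47 CPM in WT mice, a log2 fold change of -4.89 ± 0.72 (SE). Ankrd63, an ankyrin repeat gene, was at 0.504 and 0.948 against 16.1 and 13.5 CPM. The muscle genes Myh7 (a myosin heavy chain) and Myl4 (a myosin light chain) had log2 fold changes of -3.62 and -3.42, and Otof (otoferlin, a calcium sensor of hair cell synapses) of -3.15. Ldhd, Bace2, Tex40, Abi3bp and Gm10635 had log2 fold changes between -4.18 and -3.22. The WT libraries themselves differed in Gm10635, at 17.2 and 4.80 CPM.

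Cell type markers were lower for neurons and for some glia. Of 8 excitatory neuron markers 5 were lower, of 9 inhibitory neuron markers 7, of 16 astrocyte markers 12 and of 16 oligodendrocyte markers 12, with 0 higher in each. With all 12 libraries in the fit, 4 astrocyte and 0 oligodendrocyte markers were called lower by edgeR, and without the 8-week WT library 7 and 10 were. Nrgn (neurogranin, a postsynaptic calmodulin-binding protein) was at 5205 and 4709.7 CPM in post-symptomatic HD mice and at 12622 and 16203 CPM in WT mice. Rbfox3, the neuronal nuclear antigen NeuN, had a log2 fold change of -0.94. The astrocyte gene Aldoc, a glycolytic enzyme, had a log2 fold change of -0.66. Summed astrocyte markers were 4785 and 4922 against 6963 and 7338 CPM.

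Oligodendrocyte markers summed to 2585 and 2878 CPM in post-symptomatic HD mice and to 4322 and 4576 CPM in WT mice. In pre-symptomatic HD mice the sum was 2442 and 2796 CPM, and 9 of the 16 markers were lower than in WT mice. Microglia markers were called at shares near those over all genes, with 10% higher and 15% lower against 11.1% and 14.2%. Of 20 tested, the 2 higher were Ctss (0.87) and C1qc (0.65). The 3 lower included Aif1 (-1.06) and Tmem119 (-0.67, adjusted p = 0.0886 by edgeR after the GC trend was removed). The microglia markers summed to 529 and 413 against 556 and 561 CPM. Endothelial markers summed to 381 and 398 against 402 and 371 CPM, with Ly6c1 higher (0.66) and Egfl7 lower (-0.70) among 14. That was 7.14% in each direction, below the shares over all genes. Ly6c1 had an adjusted p of 0.121 by edgeR without post-symptomatic HD replicate 2 and 0.120 without the 8-week WT library, and Egfl7 one of 0.0606 without the latter.

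**Figure D5:**
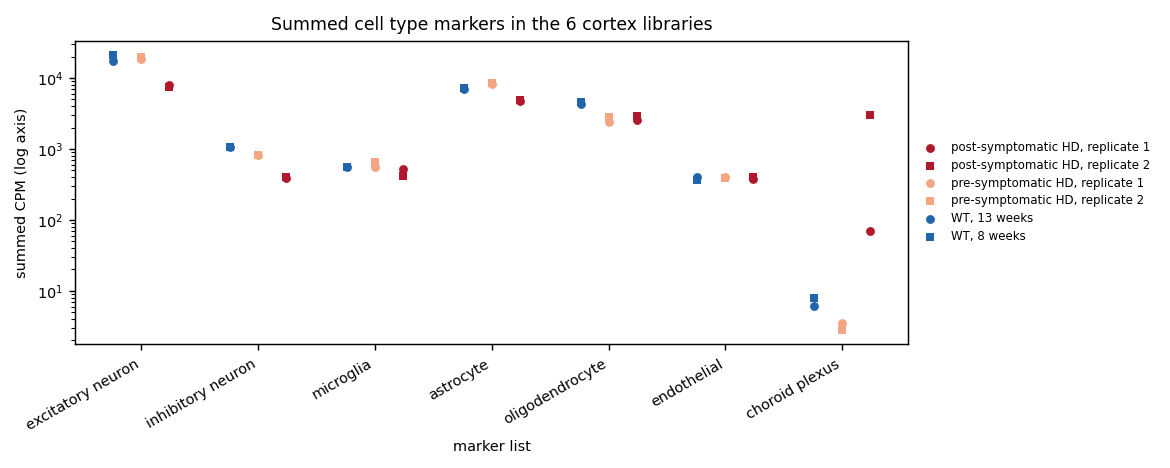
Summed CPM (vertical log axis) of 7 cell type marker lists (horizontal axis) in the 6 cortex libraries. Post-symptomatic HD libraries lie below WT libraries for both neuron lists, astrocytes and oligodendrocytes, overlap them for endothelial cells, and differ from each other for choroid plexus.

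The remaining marker lists were short, and the shares over all genes tested were 14.2% lower and 11.1% higher. Of 8 oligodendrocyte precursor markers 2 were lower, of 10 mural cell markers 1 was higher, of 8 striatum markers 4 were lower and 1 higher, of 7 thalamus markers 1 was lower, and of 5 dentate gyrus markers 1 was lower. All 5 tested choroid plexus markers had a fold change above 0, and 1 (Otx2) was called, against 4 by DESeq2 and 4 by edgeR without post-symptomatic HD replicate 1. Ttr passed by DESeq2 (adjusted p = 1.49e-05), and by edgeR without post-symptomatic HD replicate 2 it was still higher by 4.19 on the log2 scale (adjusted p = 2.62e-05). None of 7 blood cell markers was called by edgeR, and their sum in the cortex libraries ran from 77.8 CPM in post-symptomatic HD replicate 2 to 2130 CPM in pre-symptomatic HD replicate 2.

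Before symptoms, HD cortex differed from the same WT libraries in 1419 genes, 10.1% of those tested, with 1007 higher (7.19%) and 412 lower (2.94%). Because both comparisons use the same WT libraries, their values are given side by side. The median log2 fold change of the neuropeptide and interneuron list was -0.12 before and -1.07 after symptom onset, with 3 and 24 members lower. That of the glutamate receptor list was 0.19 and -0.42, and that of the potassium channel list was 0.10 and -0.62. For Sst, pre-symptomatic HD mice stood at 256 and 301 CPM, between the post-symptomatic and the WT libraries, while for Camkk2 they stood at 630.3 and 683 CPM, close to WT.

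The change in cortex was also set against the change in striatum. No gene of 14706 passed the test of the difference by edgeR (0%, with 1642 at an unadjusted p under 0.05), and DESeq2 called 185. Pre-symptomatic HD striatum replicate 2 entered that fit and held 21940 CPM of oligodendrocyte markers, and without it 607 genes were called. Pvalb, Vamp1 and Kcnab3, chosen after their values were seen, were lower in cortex, with striatal log2 fold changes of 2.93, 1.89 and 1.27. Their differences did not pass the test with that library left out (adjusted p = 0.0995, 0.0791 and 0.131 by edgeR). In striatum the HD replicates differed, with Pvalb at 44.6 and 204 CPM against 20.1 and 12.5 CPM in WT mice. Without that library, Scn3a and Zfp503 differed between regions, by 1.56 and 3.15 on the log2 scale (adjusted p = 0.00169 and 0.000145 by edgeR), with striatal log2 fold changes of -0.21 and -0.46.

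Base composition moved with these changes. When the genes were split into 4 equal groups by the GC content of their transcripts, the median log2 fold change ran from 0.22 in the group of lowest GC to -0.17 in the highest. The share of genes called higher ran from 19.1% to 5.05%, and that called lower from 7.69% to 22.9%. After this trend was removed, 3369 genes were called, with 23 neuropeptide and interneuron genes lower and 22 chromatin genes higher. Pre-symptomatic HD cortex, set against the same WT libraries, also had such a trend. There the median log2 fold change ran from 0.13 in the group of lowest GC to -0.09 in the highest.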

How the data were processed

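Total RNA from cortex was made into 3′ end libraries with the Lexogen QuantSeq kit. The authors deposited raw counts per gene for each library, and their processing notes name Bowtie2, bedtools and the mm10 genome (GRCm38). The counting rule, the annotation and the use of strand are not given in the sources used here, so reads of overlapping genes may be shared. Each table held 23282 rows, of which 44 repeated a symbol and were kept as separate rows. The compared libraries held 10518927 to 12091201 counts. Paired libraries of each cortex group were compared by chi-square, which was 6.98 to 16.8 times its degrees of freedom, so none was a copy of another.

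Genes were kept by filterByExpr of edgeR 4.0.16 with a minimum count of 10, scaled by TMM and tested by the robust quasi-likelihood test in R 4.3.3, with 3 group means over 6 cortex libraries and an adjusted p-value threshold of 0.05. The difference between regions was fitted over all 12 libraries. The study's methods give no test for these counts. Alternatives were DESeq2 1.42.0, other scaling and filters, fewer or more libraries, sex as a term and removal of the GC trend (limma 3.58.1). The fits of the region difference without pre-symptomatic HD striatum replicate 2, without all pre-symptomatic HD libraries, or with paired libraries as a block were added after the data were seen. On simulated counts for the comparison of post-symptomatic HD with WT cortex, edgeR recovered 177 of 200 genes changed by 1.5 on the log2 scale among 13821, with 5.35% of its calls false. For the difference between regions it recovered 60 of 200 such genes among 14388, with 4.76% of its calls false, so many differences of that size would be missed there.

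Labels gave the groups, and the WT libraries are 1 per age. Nothing in the labels says how many mice entered a library, so p-values refer to libraries and not to a known number of mice. The fit over the cortex libraries, pre-symptomatic HD included, had 3 residual degrees of freedom. To these the test added a median of 20.5 degrees of freedom from the spread shared over genes. P-values and SE therefore rest mostly on that shared spread, and less on the spread of a single gene between the compared libraries. The members and lists were chosen with earlier results of these data known. Named genes were the 12 that rose most and the 12 that fell most (at least 5 CPM in the higher group, groups not overlapping), up to 4 members of each list with the smallest p, and the genes that the study names. Other named genes were chosen after their values were seen, among them Arc, Egr2, Npas4, Vip, Gad1, Penk, Crh, Sstr2, Scn9a, Scn1a, Kcnh7, Kcnt2, Cacna1e, Snap25, Syp, Pclo, Shank1, Shank2, Pax2, Lhx9, Hoxd8 and Arntl2. Positions came from GENCODE M21 and promoters from RefSeq GRCm38.p6. Some genes that meet this rule are not reported here.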

Additional observations from a re-analysis of the deposited data

How the results depend on the processing

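Of 159 genes tested by name in the text, 142 were called. All 142 kept their direction under every alternative run that tested them, and 76 also kept their call. A run whose filter removed a gene was not counted for that gene. Genes without counts in WT cortex, such as Shox2 and Barx1, were removed where 1 CPM was needed in every cortex library. Against 3549 genes called in post-symptomatic HD cortex, 2207 were called at an adjusted p under 0.01, 1003 with all 12 libraries in the fit, and 1923 with the 13-week WT library alone. Leaving out each compared library in turn gave 1923 to 3060. Against 1419 genes in pre-symptomatic HD cortex, leaving out each library gave 512 to 998. For the difference between regions, DESeq2 called 185 genes and edgeR 49 without a filter on low counts, 0 to 2 with a post-symptomatic HD or WT library left out, 607 without pre-symptomatic HD striatum replicate 2, and 371 without any pre-symptomatic HD library. The cause was not tested. Of the 163 lost calls of named genes, counted over all alternatives, 64 were lost with all 12 libraries in the fit.

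Reversals touched only 3 named genes, none of them called. Fbxo18 moved from -0.01 to 0.0043 under DESeq2, 0.054 with upper-quartile scaling, 0.0073 with at least 1 CPM in every library, 0.012 with 4 libraries alone, 0.0088 without Rn45s, -0.29 without post-symptomatic HD replicate 2, 0.22 without post-symptomatic HD replicate 1 and 0.05 without the 13-week WT library. Cdkn2d moved from -0.13 to 0.022 after the GC trend was removed. Htt moved from -0.06 to -0.33 without post-symptomatic HD replicate 2, to 0.16 without post-symptomatic HD replicate 1 and to 0.04 without the 13-week WT library.

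For the cortex comparisons, no paired analysis was possible because the WT libraries carry no replicate number that matches the HD replicates and each WT age has 1 library. For the difference between regions, cortex and striatum libraries of 1 title and number (for WT, of 1 age) share sex, but the sources used here do not say that they share mice, and the correlation of their deviations was 0.144, 0.0778 and 0.0862 in the 3 groups. A fit with them as a block, chosen after the data were seen, called 0 genes by edgeR, with 1629 at an unadjusted p under 0.05. With 2 libraries a group, genes of few counts carried relatively more counting error, and its part in their spread was not tested.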
